A study of Mus musculus with 9 samples.

Results

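The replication-dependent histone genes were followed here as 69 of the 55536 genes of the table, namely every gene whose symbol began with Hist1h, Hist2h, Hist3h or Hist4h, with 1 name ending in -ps left out. They comprised 6 genes of linker histone H1, 20 of H2A, 18 of H2B, 12 of H3 and 13 of H4. By location, 56 belonged to the Hist1 cluster on chromosome 13, 10 to Hist2 on chromosome 3, 2 to Hist3 on chromosome 11 and 1 to Hist4 on chromosome 6. Hist1h2aj and Hist1h2al are annotated as pseudogenes.

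RNA was sequenced from 9 libraries of GFP+ acute myeloid leukemia cells of C57BL/6J mice, 3 in each of 3 groups. Cells with the control-GFP genotype label were sorted by c-kit. AML-WT-c-kit- is named wild-type c-kit- below, while AML-WT-c-kit+ is named wild-type c-kit+. The third group, AML-IRF7-/--c-kit+, carries the IRF7-/--GFP label and is named knockout-labelled. By the study's methods, marrow cells of WT or IRF7-/- mice, in which part of Irf7 is replaced by a PGK-beta-geo cassette, had received MLL-AF9 and GFP by retrovirus, so all 3 groups carry the fusion and GFP. Per the labels, 1000000 leukemia cells went into each recipient aged 6 to 8 weeks, the marrow was taken on day 18, and the recipients were not irradiated, so they kept their own blood-forming cells. The labels do not say whether the 3 libraries of a group came from separate mice, and p-values therefore measure only the spread between these libraries, which may be technical. All levels are TPM, which divides out transcript length and the library total and keeps no number of reads, so depth is unknown and precision is known only from 3 libraries per group.

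Canonical histones package newly made DNA, and their genes are switched on together in S phase. Their mRNAs are the ones in animal cells that normally end in a conserved stem-loop, cut by a complex with the U7 snRNA and bound by SLBP, in place of a poly(A) tail. Some of these genes also give polyadenylated transcripts, and the histone variants made outside S phase, such as H3.3 and H2A.Z, come from ordinary polyadenylated mRNAs. The libraries were made with the TruSeq RNA kit v2, which selects poly(A) RNA, so the values describe the histone RNA that this procedure recovered and not the total histone mRNA of the cells.

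The stem-loop is shown first because it marks the RNA end that sets these genes apart. Its consensus was found in the annotated transcripts of 46 members (66.7%), against 64 of the 55450 genes with a GENCODE M21 transcript (0.115%). The letters are in transcript sense, with both arms of the stem in capitals and the loop in lower case. The first form was held by 26 members of H1, H2A, H2B and H3, among them Hist3h2a, Hist3h2ba, Hist2h2aa2, Hist1h2bg and Hist1h1c. The second was held by 7 H4 members including Hist1h4m, the third by 6 members of H1, H2B and H3 including Hist1h3c, and the fourth by Hist1h4i and Hist2h4.
Form of 26 members: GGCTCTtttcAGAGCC
Form of 7 H4 members: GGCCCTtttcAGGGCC
Form of 6 members: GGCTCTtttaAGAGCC
Form of Hist1h4i and Hist2h4: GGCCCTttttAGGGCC
In 22 members the annotated gene model ended close after the stem-loop, 28 had a model that ran at least 100 nt past it, was spliced or had a long 3′ UTR, and the other 19 had a plain model without a stem-loop. Of the 28 extended models 4 held none either, so 23 members had no stem-loop in their model. No match says only that these letters are not in the annotated model. The median over members of the mean TPM was 6.20 for the models ending at the stem-loop, 1.90 for the extended ones and 2.86 for the 19 others.

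The promoters split by class. A RefSeq promoter (250 bases before the start to 50 after, GRCm38.p6) matched 61 members, and CCAAT on either strand was in 52 of them (85.2%), against 37.9% of all 27025 promoters of that length. It was in all 49 promoters of H1, H2A, H2B and H3, and in 3 of the 12 H4 promoters. TATAAA on the gene's strand was in 30 of the 61 (49.2%), against 8.88% of all promoters, and its share ran from 25% for H2B to 66.7% for H1 and H4. These are matches of letters, not sites shown to be bound.

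The members were low in these libraries. Their summed level was 442, 592 and 618 TPM in wild-type c-kit- replicates 1, 2 and 3, 637, 572 and 383 TPM in wild-type c-kit+, and 450, 387 and 512 TPM in the knockout-labelled libraries. The 3 groups overlapped in this sum. H3f3a, which codes for the replacement histone H3.3, had 1248 to 1933 TPM and exceeded the sum of all 69 members by 2.34 to 4.12 times in each library. The members together came to 7.83% to 13.1% of the summed level of 11 replication-independent histone genes.

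Few genes carried most of that level. The 10 highest members held 64.1% of the summed mean level, and 12 of the 69 had a mean above 10 TPM while 12 were below 1 TPM. Hist1h4m was highest with 62.8 TPM over the 9 libraries, followed by Hist1h4i with 43.9 TPM and Hist2h2aa2 with 42.7 TPM. Hist1h1c made up 76.6% of H1, whereas in H3 the highest gene, Hist1h3c, made up 17.5%. Hist1h2aa, Hist1h2ao and Hist1h2ba were listed at 0 in all 9 libraries. Of the 3 germline members, Hist1h2aa and Hist1h2ba thus read 0 and Hist1h1t, the testis linker histone, was at most 0.17 TPM.

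**Figure D1:**
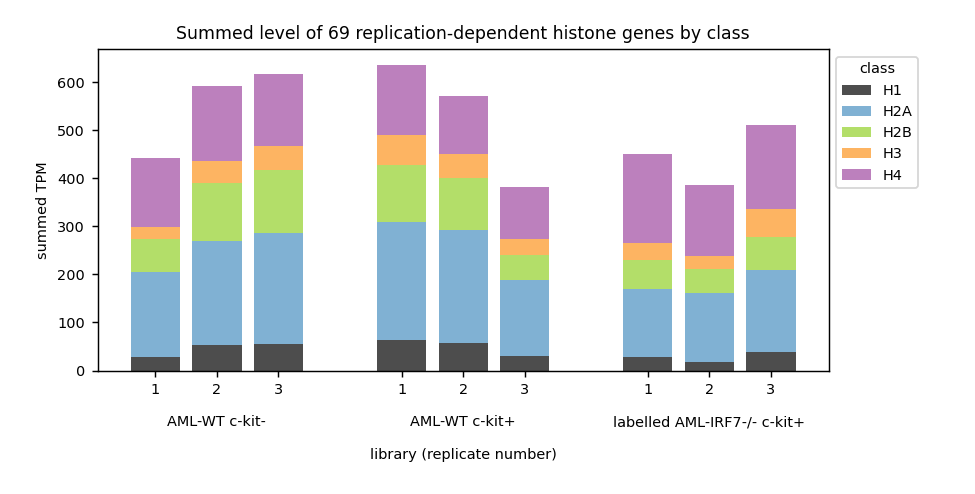
Stacked bars give the summed TPM of the 6 H1, 20 H2A, 18 H2B, 12 H3 and 13 H4 genes in each library, by replicate number within the 3 groups. Library totals ran from 383 to 637 TPM and overlapped between groups, while the H4 part was 34.3% to 40.9% in the knockout-labelled libraries and at most 32.3% elsewhere. As TPM, the H4 sum of the knockout-labelled libraries overlapped with that of wild-type c-kit-.

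The classes did not keep the same proportions. H4 genes made up 32.3%, 26.2% and 24.3% of the summed member TPM in wild-type c-kit- and 22.9%, 21.1% and 28.3% in wild-type c-kit+. In the knockout-labelled libraries the H4 share was 40.9%, 38.1% and 34.3%, above all 6 wild-type libraries. A share also rises when other classes fall. As TPM, the H4 sum was 143, 155 and 150 in wild-type c-kit-, 146, 121 and 108 in wild-type c-kit+ and 184, 148 and 176 in the knockout-labelled libraries. It thus overlapped with wild-type c-kit-. The mean H2A sum was 208, 214 and 152 TPM in the same order, and the mean H2B sum 108, 92.6 and 59.5 TPM. H2B made up 13.4%, 12.8% and 13.4% in the knockout-labelled libraries, below the 6 wild-type libraries but close to wild-type c-kit+ replicate 3, which also had 13.4%. H3 was the smallest or second smallest class throughout, with 5.75% to 11.3%.

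The label of the third group was checked on Irf7 before any direction was drawn. Irf7 had 23.5, 22.3 and 32.3 TPM in wild-type c-kit-, 5.31, 3.91 and 3.36 TPM in wild-type c-kit+, and 12.8, 5.97 and 7.95 TPM in the knockout-labelled libraries. It was therefore above every wild-type c-kit+ library in the group labelled as a knockout (log2 fold change 0.89, limma with Benjamini-Hochberg adjustment, adjusted p = 0.0321), which goes against that label. The median gene was at 0.12 in this comparison. The limma adjusted p of Irf7 missed 0.05 in 6 of 12 alternatives, where it reached 0.0949. Among these were quantile normalization and no filter on low values. The others were the fits without wild-type c-kit+ replicate 2 or 3 (log2 fold change 0.86 and 0.77) and without knockout-labelled replicate 1 or 3 (0.62 and 0.94). With a library left out, the groups still did not overlap. The table gives 1 value per gene, so RNA from the exons that the cassette leaves in place would also be counted as Irf7. The study reports that qRT-PCR and Western blot verified IRF7 expression in its leukemia models, and those measurements are not part of the values read here. Every direction for these libraries below rests on a label that Irf7 in these values does not bear out. Kit, which codes for the surface protein used in the sort, read 0.52 to 3.03 TPM in wild-type c-kit-, 50.7 to 58.5 TPM in wild-type c-kit+ and 70.3 to 85.7 TPM in the knockout-labelled libraries.

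Replicates of a group differed more for the histone genes than for other genes of like level. Over the 59 members with at least 1 TPM in at least 3 libraries, the median SD within a group, on the log2(TPM + 1) scale, was 0.40, 0.47 and 0.42 in wild-type c-kit-, wild-type c-kit+ and the knockout-labelled libraries. For 8951 other genes between 1.12 and 37.2 TPM it was 0.16, 0.15 and 0.13. The members moved up and down together between replicates. Wild-type c-kit- replicate 1 was the lowest of its group for 44 of the 59 members (74.6%, against 29.3% of the other genes), wild-type c-kit+ replicate 3 for 41 (69.5%, against 29.9%), and replicate 2 of the knockout-labelled libraries for 34 (57.6%, against 33.2%). In the other direction, replicate 3 of the knockout-labelled libraries was the highest of its group for 34 members (57.6%, against 31.1%). Wild-type c-kit+ replicate 1 was the highest for 33 (55.9%, against 27.6%). For the 3 libraries that were low for most members, the counts of calls are given without them as well. So are some, but not all, of the values that leaving them out moved by over 1.5 times or across a threshold. The 3 low libraries were below their group in all 3 kinds of gene model, as in wild-type c-kit+ replicate 3. Its median deviation on the log2 scale was −0.37 for extended models, −0.46 for models ending at the stem-loop and −0.31 for the others. Whether cell cycle phase, RNA handling or poly(A) selection differed between replicates was not tested. In bulk RNA, fewer cells in S phase and less histone mRNA per cell cannot be told apart.

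**Figure D2:**
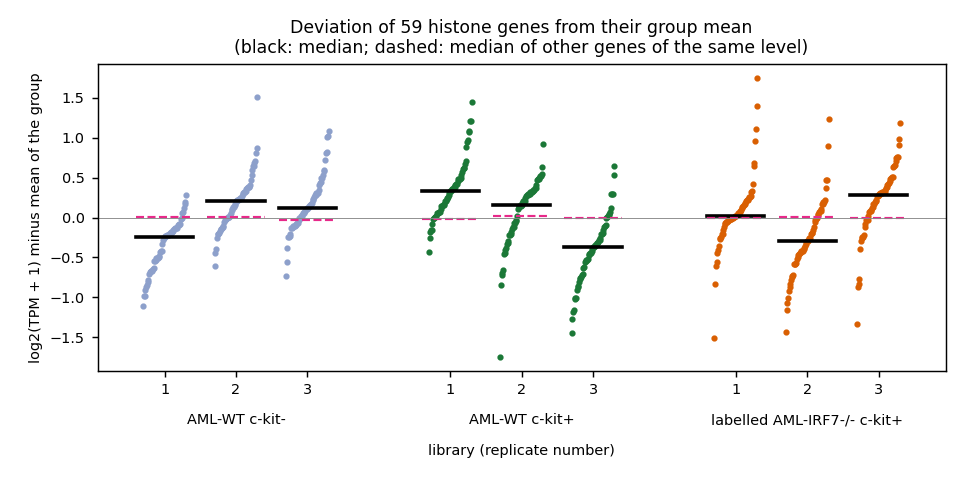
Each point is a histone gene's log2(TPM + 1) minus the mean of its group in that library (59 genes), the black bar is their median and the dashed bar the median of 8951 other genes of the same level. The black bars run from −0.37 in wild-type c-kit+ replicate 3 to 0.33 in wild-type c-kit+ replicate 1, while the dashed bars stay between −0.03 and 0.02.

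Each pair of groups was compared with limma on log2(TPM + 1) over every gene that reached 1 TPM in 3 or more of its 6 libraries, with Benjamini-Hochberg adjustment over all of these. On this scale a fold change understates the change of low genes. A gene was called when its adjusted p was under 0.05 and its log2 fold change reached 1 in either direction, and counts by adjusted p alone are given as well.

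Between the wild-type populations, few histone genes differed. Of 58 members tested, 0 were called higher in wild-type c-kit+ and 1 was called lower, Hist3h2ba, against 4.83% and 9.61% of all 13261 genes tested. By adjusted p alone 1 member was higher (14% of all genes) and 4 were lower (27.6%). An unadjusted limma p under 0.05 was met by 5 members in each direction. The share of all genes meeting it was not counted, but cannot be below that by adjusted p. Past both thresholds, 0 were higher and 2 lower without wild-type c-kit- replicate 1, and 2 higher and 2 lower without wild-type c-kit+ replicate 3. The libraries did not overlap for 3 members that were higher (19.7% of all genes) and 7 that were lower (34.7%). The median log2 fold change of the members was 0.14, and that of all genes −0.08. Of the 58, 19 had a 95% interval wholly between −1 and 1, so a 2-fold difference was not resolved for the others.

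In the knockout-labelled libraries against wild-type c-kit+, 56 members were tested, and limma called 0 higher (6.3% of 13238 genes) and 0 lower (5.39%). By adjusted p alone 3 were higher (31.9% of all genes) and 6 were lower (16.1%). An unadjusted limma p under 0.05 was met by 3 higher and 10 lower, and by at least 31.9% and 16.1% of all genes, whose exact shares were not counted. The libraries did not overlap for 2 higher members (39% of all genes) and 7 lower ones (20.1%). The median log2 fold change was −0.32 for the members and 0.12 for all genes, and 12 of the 56 members were above the median gene. Since the scale of the table puts the median gene at 0.12, changes relative to it are given for the members that rose. Falls are given without this shift, and relative to the median gene each would be larger in size by 0.12. Hist3h2a, Hist1h1c, Hist1h2ab and Hist1h2ac, lower by adjusted p, fell short of the fold threshold of 1 as given. Relative to the median gene they would reach it. By quantile normalization 0 members were higher and 3 lower. Without wild-type c-kit+ replicate 3, which was low for most members, 7 members were called lower, among them Hist1h1c at −1.20 and Hist1h2bg at −2.0. Without replicate 3 of the knockout-labelled libraries, which was high for most, 4 were called lower. Without knockout-labelled replicate 2, also low for most, 1 was called higher and 1 lower. Calls also appeared without each of the other libraries. Hist1h2br was called lower without knockout-labelled replicate 1 and Hist1h2ab lower without wild-type c-kit+ replicate 2. Hist2h2bb was called higher without wild-type c-kit+ replicate 1. The low count thus depended on which libraries were in the fit.

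Against wild-type c-kit-, 55 members were tested in the knockout-labelled libraries. Hist1h2ah was called higher (1 of 55, against 8.4% of 13510 genes), and Hist3h2ba, Hist3h2a, Hist1h2bg and Hist2h2aa2 were called lower (4 of 55, against 11.9%). By adjusted p alone 4 were higher (30.7% of all genes) and 5 lower (28.7%). Libraries did not overlap for 3 higher (34.7%) and 7 lower members (32.4%). The median was −0.07 for the members and 0.03 for all genes. Without wild-type c-kit- replicate 1 the lower calls were 7, and without wild-type c-kit- replicate 3 they were 2. Without knockout-labelled replicate 2 the calls were 3 higher and 3 lower, and without knockout-labelled replicate 3 there were 0 higher.

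**Figure D3:**
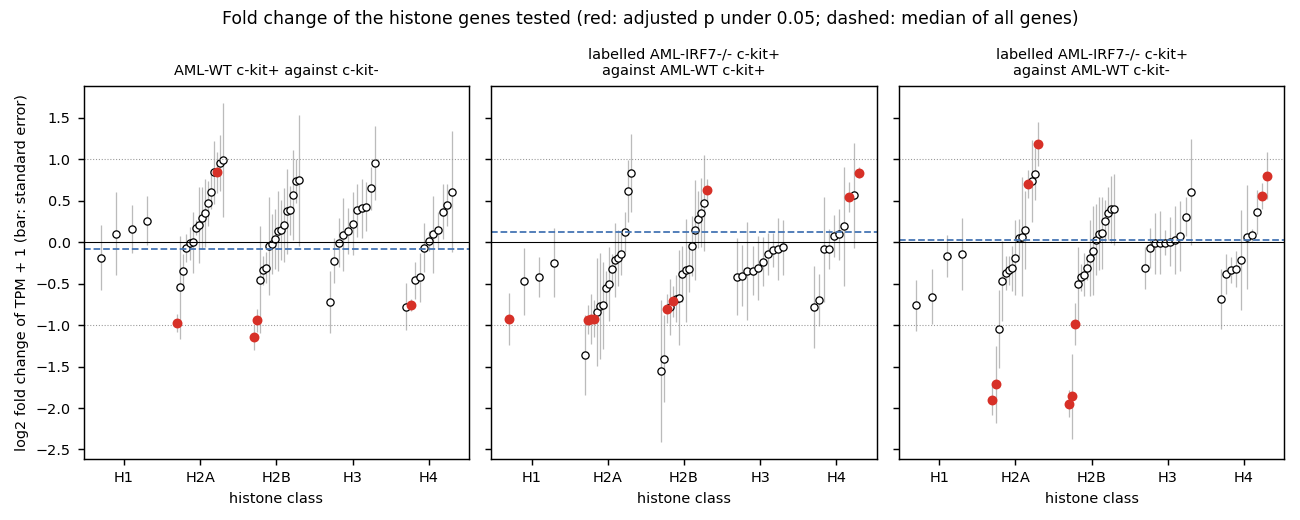
Each point is the log2 fold change of a histone gene tested, by class, in the 3 comparisons, with its standard error, red where the limma adjusted p was under 0.05. The dashed line is the median of all genes (−0.08, 0.12 and 0.03), the dotted lines mark −1 and 1, and in the comparison with wild-type c-kit+ the 10 tested H3 genes all lie between −0.42 and −0.06 without passing the test.

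The Hist3 pair on chromosome 11 gave the clearest order of the groups. Hist3h2a codes for an H2A and also gives polyadenylated RNA. It read 16.6, 16.9 and 19.7 TPM in wild-type c-kit-, 8.63, 9.25 and 7.81 TPM in wild-type c-kit+, and 4.09, 2.97 and 5.18 TPM in the knockout-labelled libraries. No library of a group overlapped another group. The log2 fold change of Hist3h2a was −0.97 ± 0.11 (SE, limma adjusted p = 0.000607) between the wild-type populations, −0.93 ± 0.18 (limma adjusted p = 0.00549) from wild-type c-kit+ to the knockout-labelled libraries and −1.90 ± 0.18 (limma adjusted p = 0.000166) from wild-type c-kit-. Hist3h2ba, an H2B gene, read 6.10, 4.81 and 5.82 TPM, then 1.62, 2.26 and 2.04 TPM, then 0.44, 0.79 and 0.91 TPM in the same order. Its groups did not overlap either, with log2 fold changes of −1.15 ± 0.15 (SE, limma adjusted p = 0.00114), −0.80 ± 0.17 (limma adjusted p = 0.00929) and −1.95 ± 0.16 (limma adjusted p = 0.000109). In the comparisons with the knockout-labelled libraries Hist3h2ba passed the filter through the wild-type group alone. By exact permutation, two-sided, p was 0.1 for each pair of groups and gene, the smallest that 3 libraries against 3 allow. All 6 of these limma calls by adjusted p held under each alternative that could be fitted. Both pass 0.05 between the wild-type populations as well, where the labels are not in question.

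Both Hist3 promoters are shown because these members moved together. TATAAA on the gene's strand and CCAAT on either strand (ATTGG on the printed strand) are in capitals, and sequences are from RefSeq on GRCm38.p6.
Hist3h2a (chr11:58954435-58954734, plus strand): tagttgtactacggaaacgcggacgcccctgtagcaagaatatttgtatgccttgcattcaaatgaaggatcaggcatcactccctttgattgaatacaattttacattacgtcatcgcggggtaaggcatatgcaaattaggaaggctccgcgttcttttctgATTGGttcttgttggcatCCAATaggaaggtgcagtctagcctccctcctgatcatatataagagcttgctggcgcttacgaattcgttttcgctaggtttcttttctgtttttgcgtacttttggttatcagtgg
Hist3h2ba (chr11:58948661-58948960, plus strand): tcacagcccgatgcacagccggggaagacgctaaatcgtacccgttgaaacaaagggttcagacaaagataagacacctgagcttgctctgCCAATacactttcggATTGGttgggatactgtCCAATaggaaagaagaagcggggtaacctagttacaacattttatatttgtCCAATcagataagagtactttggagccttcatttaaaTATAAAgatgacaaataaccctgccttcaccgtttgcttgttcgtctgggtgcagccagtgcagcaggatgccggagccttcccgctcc
The Hist3h2a window held 2 CCAAT matches and no TATAAA, and the Hist3h2ba window held 4 CCAAT matches and a TATAAA. The Hist3h2a model (chr11:58954685-58956830) overlaps Trim17 on the same strand and shares 31.5% of its 50-mers with other annotated transcripts, among them Trim17. Trim17 itself was listed at 0.02 to 0.34 TPM in the 9 libraries. Hist3h2bb-ps, the excluded pseudogene, shares sequence with Hist3h2ba and read at most 1.64 TPM, with 0.56 to 1.64 TPM in wild-type c-kit- and 0 to 0.54 TPM in the knockout-labelled libraries.

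Among H4 genes, Hist1h4m stood out by its small spread. It read 74.4, 73.0 and 66.3 TPM in wild-type c-kit-, 39.4, 42.2 and 43.7 TPM in wild-type c-kit+, and 75.0, 80.2 and 71.4 TPM in the knockout-labelled libraries. Wild-type c-kit+ was below both other groups without overlap, and the other two overlapped. Its log2 fold change was −0.76 ± 0.07 (SE, limma adjusted p = 0.000295) between the wild-type populations and 0.84 ± 0.07 (limma adjusted p = 0.000246), which is 0.72 above the median gene, from wild-type c-kit+ to the knockout-labelled libraries. Against wild-type c-kit- it was 0.08, with a 95% interval of −0.09 to 0.25 (limma adjusted p = 0.344). Hist1h4n, a near-identical copy on the same chromosome, holds 89.8% of the 50-mers of Hist1h4m and read 9.10, 16.5 and 17.3 TPM, then 24.3, 19.1 and 6.79 TPM, then 10.5, 4.54 and 11.2 TPM. Reads of the pair may have been divided between them, so their sum is the safer value. The sum was 83.5, 89.5 and 83.6 TPM, then 63.7, 61.3 and 50.5 TPM, then 85.5, 84.7 and 82.6 TPM, and wild-type c-kit+ again lay below both. For the sum the log2 fold change was −0.55 (limma adjusted p = 0.00436) and 0.53 (limma adjusted p = 0.00405).

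The Hist1h4m promoter is shown as that of the most abundant member. It holds TATAAA, in capitals, and no CCAAT.
Hist1h4m (chr13:21811496-21811795, plus strand): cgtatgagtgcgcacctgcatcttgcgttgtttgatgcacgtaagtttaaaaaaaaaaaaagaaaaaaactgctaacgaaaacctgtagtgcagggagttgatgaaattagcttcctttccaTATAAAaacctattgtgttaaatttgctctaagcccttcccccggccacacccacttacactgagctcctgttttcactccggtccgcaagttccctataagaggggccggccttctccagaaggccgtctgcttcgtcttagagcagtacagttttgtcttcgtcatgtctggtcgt
Hist1h4i, another H4 gene, with 28.9% of its 50-mers shared, read 34.7, 36.9 and 40.3 TPM in wild-type c-kit-, 45.2, 36.0 and 32.9 TPM in wild-type c-kit+ and 54.5, 45.0 and 69.8 TPM in the knockout-labelled libraries. It overlapped between wild-type c-kit+ and the knockout-labelled libraries, by 45.2 TPM against 45.0 TPM. The log2 fold change there was 0.55 ± 0.18 (SE, limma adjusted p = 0.0423), which is 0.43 above the median gene, and 0.56 ± 0.16 (limma adjusted p = 0.0187) against wild-type c-kit-. The first was lost in 7 of 12 alternatives, where the limma adjusted p reached 0.122, among them quantile normalization and leaving out wild-type c-kit+ replicate 2 or 3 (0.51 and 0.45) or knockout-labelled replicate 1 or 3 (0.56 and 0.38). The second was lost without wild-type c-kit- replicate 1 or 2 (0.51 and 0.56). Of the 13 H4 genes, 10 were tested between the c-kit+ groups, 2 were higher by adjusted p (Hist1h4m and Hist1h4i, against 31.9% of all genes) and 0 lower (16.1%). The H4 median of 0.08 was below the median gene at 0.12, and the medians of the other classes were between −0.52 and −0.27.

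**Figure D4:**
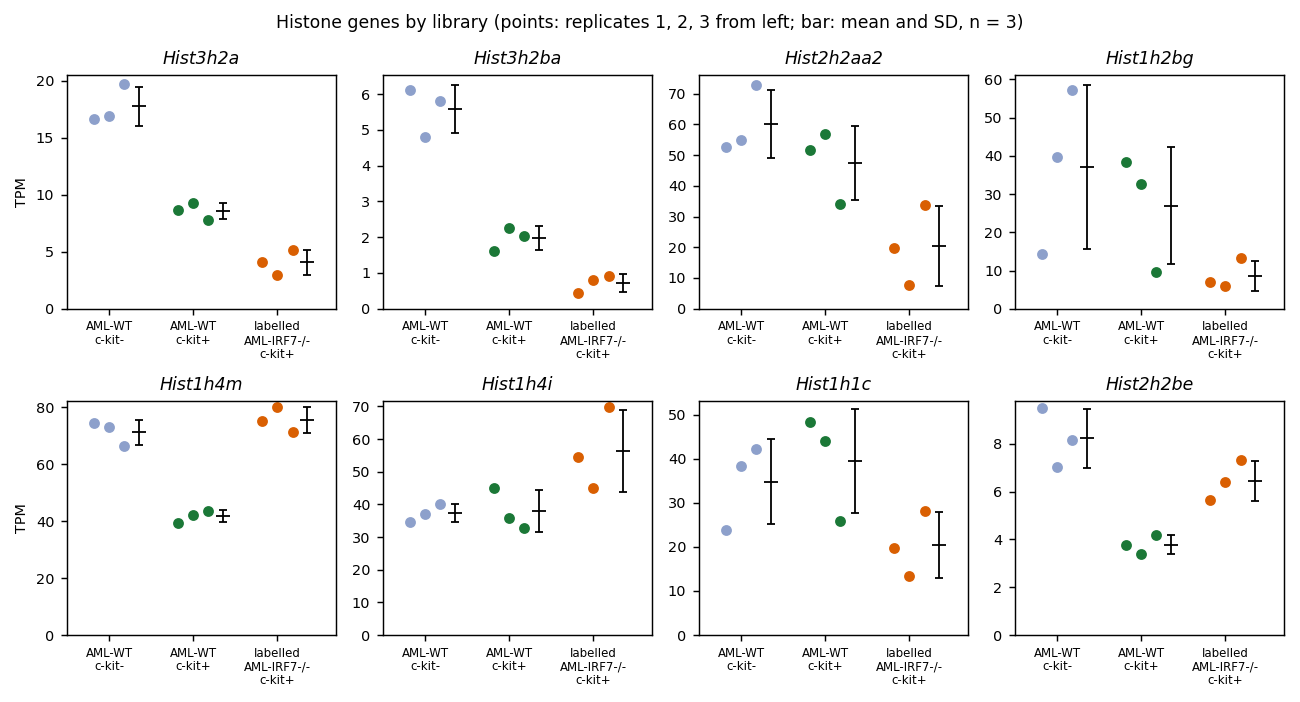
Points are TPM of 8 histone genes in each library (replicates 1, 2 and 3 from left), with the mean and SD (n = 3) beside them, for wild-type c-kit-, wild-type c-kit+ and the knockout-labelled libraries. Hist3h2a and Hist3h2ba step down across the 3 groups without overlap, and Hist1h4m and Hist2h2be are lowest in wild-type c-kit+.

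Few H2A and H2B genes passed the test in the knockout-labelled libraries, in both directions. By adjusted p against wild-type c-kit+, 3 of 16 H2A genes were lower and 0 higher, and 2 of 16 H2B genes were lower and 1 higher. Of all genes, 16.1% were lower and 31.9% higher there. Against wild-type c-kit-, 2 of 15 H2A genes were higher and 2 lower, and 3 of 16 H2B genes were lower and 0 higher. Of all genes, 30.7% were higher and 28.7% lower in that comparison. Hist2h2aa2, the most abundant H2A gene, read 52.5, 55.0 and 72.9 TPM in wild-type c-kit-, 51.7, 56.9 and 34.0 TPM in wild-type c-kit+, and 19.6, 7.75 and 33.7 TPM in the knockout-labelled libraries. Only replicate 3 of the knockout-labelled libraries, at 33.7 TPM, came near the lowest wild-type library, at 34.0 TPM. The log2 fold change was −1.72 ± 0.47 (SE, limma adjusted p = 0.0173) from wild-type c-kit- and −1.36 ± 0.48 (limma adjusted p = 0.0536, not past the threshold) from wild-type c-kit+. The first was −1.57 without wild-type c-kit- replicate 3 and no longer passed (limma adjusted p = 0.0562). Without knockout-labelled replicate 2, the library with 7.75 TPM, it was −1.18 (limma adjusted p = 0.0109) and the second was −0.83 (limma adjusted p = 0.0699). All 50-mers of Hist2h2aa2 (100%) also occur in Hist2h2aa1, with which it was summed after the data were seen. The sum read 56.6, 63.9 and 92.2 TPM, then 65.3, 60.3 and 38.2 TPM, then 22.7, 12.2 and 37.8 TPM. Its log2 fold change passed from both wild-type groups, at −1.61 (limma adjusted p = 0.0104) from wild-type c-kit- and −1.24 (limma adjusted p = 0.0385) from wild-type c-kit+.

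Hist1h2bg, the most abundant H2B gene, read 14.4, 39.8 and 57.1 TPM in wild-type c-kit-, 38.5, 32.8 and 9.69 TPM in wild-type c-kit+, and 6.89, 5.83 and 13.2 TPM in the knockout-labelled libraries. The lowest values in the wild-type groups came from wild-type c-kit- replicate 1 and wild-type c-kit+ replicate 3, which were low for most members. The log2 fold change was −1.86 ± 0.51 (SE, limma adjusted p = 0.0186) from wild-type c-kit- and −1.41 ± 0.53 (limma adjusted p = 0.0645) from wild-type c-kit+. Without wild-type c-kit+ replicate 3 the second value was −2.0 (limma adjusted p = 0.0069), and without wild-type c-kit- replicate 1 the first was −2.41 (limma adjusted p = 0.00252). The first call was lost without wild-type c-kit- replicate 2 or 3 (−1.71 and −1.46) and without knockout-labelled replicate 1 or 2 (−1.75 and −1.65), with limma adjusted p from 0.0517 to 0.0602. Hist1h2af and Hist1h2ad, H2A genes that come next in level with 36.6 and 31.0 TPM over the 9 libraries, passed the test in no comparison. Nor did the third H2B gene, Hist1h2bj, with 8.79 TPM.

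The 5 members known to give polyadenylated transcripts differed in their order of groups. Against wild-type c-kit-, all 4 that were tested had a negative log2 fold change in the knockout-labelled libraries (median −0.87, against 0.03 for all genes). Of these, 2 were lower by adjusted p (50%, against 28.7% of all genes). Between the c-kit+ groups 2 were lower (50%, against 16.1%) and 1 higher (25%, against 31.9%). The sum of the 5 was 72.6, 90.6 and 98.7 TPM in wild-type c-kit-, 82.5, 83.2 and 54.0 TPM in wild-type c-kit+, and 44.5, 31.0 and 57.5 TPM in the knockout-labelled libraries, with an overlap between the c-kit+ groups and none between the knockout-labelled libraries and wild-type c-kit-. Hist3h2a is described above. Hist2h2be, an H2B gene with none of its 50-mers shared, read 9.50, 7.04 and 8.16 TPM, then 3.77, 3.40 and 4.19 TPM, then 5.64, 6.39 and 7.31 TPM. It was lowest in wild-type c-kit+ without overlap, with log2 fold changes of −0.94 ± 0.14 (SE, limma adjusted p = 0.0022) between the wild-type populations and 0.63 ± 0.13 (limma adjusted p = 0.00779), which is 0.51 above the median gene, from wild-type c-kit+ to the knockout-labelled libraries. That is the order of Hist1h4m and the opposite of the Hist3 genes between the c-kit+ groups. Hist1h2bc read 22.1, 27.9 and 27.9 TPM, then 21.5, 26.1 and 15.8 TPM, then 14.7, 8.01 and 16.6 TPM, and fell by 0.99 on the log2 scale from wild-type c-kit- to the knockout-labelled libraries (limma adjusted p = 0.0141). Hist4h4, an H4 gene, was at most 0.61 TPM and was not tested.

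Hist1h1c carried most of the linker histone signal. It read 23.9, 38.3 and 42.3 TPM in wild-type c-kit-, 48.3, 44.0 and 26.0 TPM in wild-type c-kit+, and 19.8, 13.4 and 28.1 TPM in the knockout-labelled libraries. Replicate 3 of the knockout-labelled libraries was above wild-type c-kit+ replicate 3, so the groups overlapped. The log2 fold change from wild-type c-kit+ was −0.93 ± 0.31 (SE, limma adjusted p = 0.0465), which was lost in 6 of 12 alternatives, where the limma adjusted p reached 0.137. Among these were the fits without wild-type c-kit+ replicate 1 or 2 (−0.76 and −0.83) and without knockout-labelled replicate 1 or 2 (−0.94 and −0.67). From wild-type c-kit- the log2 fold change was −0.76 (limma adjusted p = 0.0666). Hist1h1b and Hist1h1a averaged 4.73 and 2.95 TPM and did not pass in any comparison. No H3 gene passed by adjusted p in any comparison. Hist1h3c, Hist1h3g and Hist1h3a, the highest of the class with means of 7.57, 6.56 and 6.23 TPM, had log2 fold changes of −0.09, −0.23 and −0.09 from wild-type c-kit+ to the knockout-labelled libraries.

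The remaining members past an adjusted p of 0.05 were low or copies of one another. Hist1h2ap read 10.9, 13.9 and 14.4 TPM in wild-type c-kit-, 29.4, 29.4 and 16.1 TPM in wild-type c-kit+ and 17.9, 21.2 and 27.0 TPM in the knockout-labelled libraries. Wild-type c-kit- lay below both other groups, with log2 fold changes of 0.84 to wild-type c-kit+ (limma adjusted p = 0.0311, lost in 7 of 12 alternatives) and 0.70 to the knockout-labelled libraries (limma adjusted p = 0.0113). Hist1h2ab, Hist1h2ac and Hist1h2bq fell from wild-type c-kit+ to the knockout-labelled libraries by 0.93, 0.92 and 0.71 on the log2 scale, with means of 2.74, 1.72 and 3.65 TPM in wild-type c-kit+. Hist1h2ac passed the filter through wild-type c-kit+ alone. Hist1h2bq has 98.5% of its 50-mers in Hist1h2br, a near-identical copy. Their sum did not pass between the c-kit+ groups (log2 fold change −1.30, limma adjusted p = 0.0784). By adjusted p Hist1h2ab was lost without wild-type c-kit+ replicate 1 or 3 (−0.89 and −0.78) and knockout-labelled replicate 1 or 3 (−0.64 and −0.97), and Hist1h2bq without wild-type c-kit+ replicate 2 or 3 (−0.61 and −0.69). Hist1h2ap was lost between the wild-type populations without any 1 of 5 libraries, with values from 0.70 to 0.92. Without wild-type c-kit+ replicate 3, its lowest there, it held and passed both thresholds, at 1.12. Hist1h4f rose by 0.81 from wild-type c-kit- to the knockout-labelled libraries (limma adjusted p = 0.0459, lost in 6 of 11 alternatives, 4 of which left out wild-type c-kit- replicate 1 or 2 or knockout-labelled replicate 1 or 3 and gave 0.67 to 0.71).

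Hist1h2ah, the single member called higher in the knockout-labelled libraries, shares its sequence. It read 1.35, 1.38 and 1.41 TPM in wild-type c-kit-, 3.25, 3.36 and 0.51 TPM in wild-type c-kit+ and 4.81, 2.62 and 6.58 TPM in the knockout-labelled libraries, and 90.7% of its 50-mers occur in other transcripts. Its log2 fold change from wild-type c-kit- was 1.19 (limma adjusted p = 0.00787). Summed with Hist1h2ad, Hist1h2ai, Hist1h2aj and Hist1h2an, its near-identical copies, the group read 32.1, 53.4 and 44.1 TPM, then 61.2, 56.9 and 33.1 TPM, then 36.2, 42.0 and 40.5 TPM, and the log2 fold change was −0.10 (limma adjusted p = 0.662). The call did not hold for the sum. Shared sequence was common, as the median member had 52.3% of its 50-mers in other transcripts, 35 members had more than 50%, and 13 members fell into 5 near-identical groups.

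**Figure D5:**
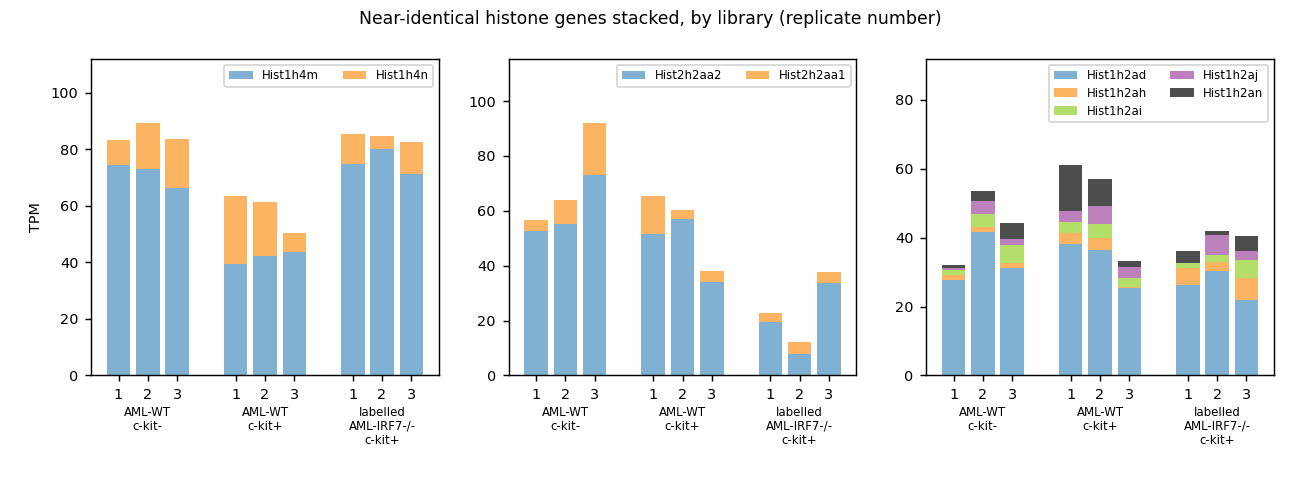
Stacked bars give TPM per library of Hist1h4m with Hist1h4n, Hist2h2aa2 with Hist2h2aa1, and Hist1h2ad with 4 near-identical H2A genes. The first sum is 50.5 to 63.7 TPM in wild-type c-kit+ and 82.6 to 89.5 TPM in the other libraries, the second is lowest in the knockout-labelled libraries, and the third overlaps between all groups.

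Genes that work with the histone mRNAs were read from lists. Of 22 genes of histone mRNA 3′ end processing, turnover and transcription, 12 were higher (54.5%, against 31.9% of all genes) and 3 lower (13.6%, against 16.1%) by adjusted p from wild-type c-kit+ to the knockout-labelled libraries, with a median log2 fold change of 0.26 against 0.12 for all genes. Between the wild-type populations 1 was higher (4.55%, against 14%) and 5 lower (22.7%, against 27.6%). Slbp, which codes for the stem-loop binding protein, read 134, 130 and 118 TPM, then 170, 143 and 147 TPM, then 144, 150 and 147 TPM. Slbp did not pass between the c-kit+ groups (log2 fold change −0.06, 95% interval −0.24 to 0.12, limma adjusted p = 0.554). Tut4, a uridylyltransferase that takes part in histone mRNA decay, was the member of the list called in both comparisons with the knockout-labelled libraries, at 3.53, 5.83 and 7.22 TPM, then 7.96, 10.7 and 7.60 TPM, then 0.66, 3.11 and 0.25 TPM (log2 fold change −2.24 from wild-type c-kit+, limma adjusted p = 0.00568). Against wild-type c-kit- the call of Tut4 was lost without wild-type c-kit- replicate 2 or 3 (−1.58 and −1.44) and knockout-labelled replicate 1 or 3 (−1.48 and −1.28).

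Genes of S phase were read in the same way. Of 36 S phase genes, 26 were higher (72.2%, against 31.9% of all genes) and 0 lower in the knockout-labelled libraries than in wild-type c-kit+ by adjusted p (median 0.39). Against wild-type c-kit- 33 were higher (91.7%, against 30.7%, median 0.62), and 18 were higher in wild-type c-kit+ than in wild-type c-kit- (50%, against 14%, median 0.27). Mcm10, which codes for a part of the replication machinery, was called higher against wild-type c-kit- at 1.02 (1 of 36, against 8.4% of all genes). Of 25 G2/M genes, 3 were higher by adjusted p between the c-kit+ groups (12%, against 31.9% of all genes). Of 19 histone chaperones 13 were higher (68.4%, against 31.9%) and 1 lower (5.26%, against 16.1%) there. Against wild-type c-kit-, 2 of the 19 were called higher (8.4% of all genes). These were Mcm2, which also codes for a part of the replication machinery, at 1.09, and Chaf1b, a subunit of the chromatin assembly factor, at 1.00. The members and these lists share the same libraries, so the direction of each is given side by side and no relation between them was tested.

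The replication-independent histones split. H2afy2, a macroH2A gene, read at most 0.36 TPM in the wild-type libraries and 9.70, 8.10 and 9.43 TPM in the knockout-labelled ones, with a log2 fold change of 3.01 from wild-type c-kit+ (limma adjusted p = 2.91e-05). H2afy2 passed the filter through the knockout-labelled libraries alone, so the group where it was high also selected it for the test. H1fx, a linker variant, was 0.23 to 1.94 TPM in the wild-type libraries and 9.24, 6.63 and 8.58 TPM in the knockout-labelled ones (log2 fold change 2.16, limma adjusted p = 0.00133). H2afz, coding for H2A.Z, rose by 0.34 and H2afx, coding for the DNA damage variant H2A.X, fell by 0.36 on the log2 scale from wild-type c-kit+ (limma adjusted p = 0.00547 and 0.00682). The H2afz call was lost with quantile normalization, at 0.20 (limma adjusted p = 0.0912). H3f3b fell by 0.66 (limma adjusted p = 0.0134), at 572, 752 and 786 TPM, then 802, 764 and 549 TPM, then 458, 386 and 478 TPM. H3f3b, named after its values were seen, was the lowest of its group in wild-type c-kit- replicate 1, wild-type c-kit+ replicate 3 and replicate 2 of the knockout-labelled libraries, as most of the histone members were. How many other genes share all of these lows was not counted, so this gene does not show that the variants followed the members. The sum of the 11 replication-independent genes was the lowest of its group in wild-type c-kit+ replicate 3, but not in wild-type c-kit- replicate 1 or knockout-labelled replicate 2. It read 5647, 5678 and 5558 TPM, then 4877, 4724 and 4586 TPM, then 4552, 4563 and 4675 TPM.

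Other RNAs made without a poly(A) tail were read beside the members. Their 23 rows summed to 481, 257 and 283 TPM in wild-type c-kit-, 343, 213 and 334 TPM in wild-type c-kit+ and 237, 208 and 144 TPM in the knockout-labelled libraries. Unlike the histone sum, this one was highest in wild-type c-kit- replicate 1. Rn7sk, a nuclear RNA that holds back transcription elongation, read 122, 92.5 and 100.3 TPM, then 100.4, 64.8 and 97.6 TPM, then 47.5, 38.0 and 31.1 TPM (log2 fold change −1.15 from wild-type c-kit+, limma adjusted p = 0.0049). Snora73a was the gene of this list called higher in the knockout-labelled libraries, from 0 TPM in 5 of the 6 wild-type libraries to 11.3, 7.89 and 23.3 TPM. Against wild-type c-kit- it passed the filter through the knockout-labelled libraries alone. Without wild-type c-kit+ replicate 3 or knockout-labelled replicate 3 it missed the adjusted p against wild-type c-kit+ (2.53 and 2.55). How much RNA without a tail each library kept was not tested.

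Markers of other marrow cells were checked as whole lists. The 10 genes of leukemic and myeloid cells summed to 4535 to 8999 TPM. The 6 T cell genes summed to 0.55 to 2.36 TPM in the wild-type libraries and 2.75 to 5.18 TPM in the knockout-labelled libraries. In the latter, most of it came from Lck, at 3.68, 1.17 and 2.95 TPM, and Cd3d, at 0.26, 1.27 and 0.15 TPM. Cd3e was at most 0.22 TPM in any library. The 6 B cell genes summed to 26.4 to 38.1 TPM, nearly all of it Cd79b. The 9 erythroid genes summed to 3.81 to 18.3 TPM. The 6 megakaryocyte genes summed to 0.80 to 2.57 TPM in wild-type c-kit- and 9.32 to 13.0 TPM in the other groups, mostly Gp9. The 6 stromal and endothelial genes summed to 128, 159 and 134 TPM, then 68.5, 70.1 and 59.6 TPM, then 157, 124 and 146 TPM, lowest in wild-type c-kit+ as were Hist1h4m and Hist2h2be. That sum came from Pecam1 and Lepr, while the endothelial genes Cdh5 and Kdr were at most 0.24 and 0.06 TPM. The part of these cells in the histone values was not tested.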

How the data were processed

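RNA of 9 libraries was read from 1 table, in which the authors deposited TPM for 55536 genes. The unit is not named in the table and was taken as TPM from the library totals and from how the smallest values fall with transcript length. The study's methods call the assay a microarray, whereas the labels give TruSeq RNA libraries for sequencing. The aligner, quantifier, genome build and use of strand are not given in the sources used here. TPM scales each gene by its length and the library total, and it is sensitive to how reads of short, near-identical genes were assigned.

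Matched by gene identifier, GENCODE M21 on GRCm38 (transcripts of 55450 genes) gave coordinates, transcripts, the stem-loop search and the share of 50-mers held by other transcripts. Members with at least 80% of their 50-mers in another were treated as near-identical. Promoters were RefSeq sequences on GRCm38.p6, matched through gene identifiers.

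For every comparison, limma 3.58.1 in R 4.3.3 (lmFit, eBayes with trend) was run on log2(TPM + 1) of the 6 libraries concerned, for genes reaching 1 TPM in 3 or more of them, with Benjamini-Hochberg adjustment over all of them. The fit was tested on simulated data first. Exact permutation tests were two-sided. Summaries used pandas 2.3.3 (Python 3.11.15), and plots matplotlib 3.10.9.

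The members and lists were chosen with earlier results of these data known. Genes were named by rule: the 3 highest members of each class, members past both thresholds without overlap, the polyadenylated and germline lists, the largest calls of each pathway list, and Irf7, Kit, Slbp, H2afx and H2afz. Other names, such as Hist1h4f, H3f3a and H3f3b, were chosen after their values were seen. Groups and replicate numbers came from the labels. Same-numbered libraries of different groups had correlations of their deviations from −0.07 to 0.24 over 13962 genes, most of them positive. For libraries of different numbers they ran from −0.18 to 0.14, most of them negative. Whether the numbers mark pairs or batches was not tested, and the libraries were not taken as pairs in the main fits. No library was left out of the values given first. The alternatives were another filter, pseudocount, scaling, call rule, all 9 libraries in 1 fit, a block for the replicate number, leaving out a library at a time, and, added after the data were seen, near-identical members summed.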

Additional observations from a re-analysis of the deposited data

How the results depend on the processing

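Of 23 member results past an adjusted p of 0.05, 14 held in every alternative other than the sum of near-identical members, 9 were lost in some and 0 reversed. Under that sum, the value of Hist1h2ah against wild-type c-kit- went from 1.19 to −0.10 (limma adjusted p = 0.662). Hist1h2bq between the c-kit+ groups went from −0.71 (limma adjusted p = 0.0204) to −1.30 with Hist1h2br, which did not pass (limma adjusted p = 0.0784). Between the wild-type populations the higher calls rose from 0 to 1 by adjusted p alone and by quantile normalization, and the lower calls went from 1 to 4 by adjusted p alone, 3 with a pseudocount of 0.1 and 0 with a filter of 5 TPM. From wild-type c-kit+ to the knockout-labelled libraries the higher calls went from 0 to 3 by adjusted p alone. The lower calls there went from 0 to 6 by adjusted p alone, to 3 with a pseudocount of 0.1 or quantile normalization, and to 1 with a filter of 5 TPM, with all 9 libraries in 1 fit or with near-identical members summed. From wild-type c-kit- to the knockout-labelled libraries the higher calls went from 1 to 4 by adjusted p alone, 2 with a pseudocount of 0.1, and 0 with a filter of 5 TPM or near-identical members summed, the last by joining Hist1h2ah with its copies.

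With each library left out, the higher calls ran from 0 to 2 between the wild-type populations, from 0 to 1 between the c-kit+ groups and from 0 to 3 against wild-type c-kit-, and the lower calls from 1 to 3, from 0 to 7 and from 2 to 7. The members' median ran from −0.09 to 0.39, from −0.51 to −0.11 and from −0.28 to 0.04. The cause was not tested.

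With the replicate number as a block, the lower calls between the c-kit+ groups were 1 (Hist1h2br, −1.55) in place of 0, and those against wild-type c-kit- were 5 in place of 4. The higher calls stayed at 0, 0 and 1. Wild-type c-kit- replicate 1 correlated best with wild-type c-kit+ replicate 3, so not every library was nearest its own number.

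TPM keeps no depth, so members near 1 TPM carry an error that cannot be stated, and reads of near-identical genes cannot be assigned from this table.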
